A study of Homo sapiens with 2 samples.

Results

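The NANOG, DPPA3 and GDF3 cluster on the short arm of chromosome 12 was examined as a fixed stretch of 500 kb, chr12:7600000-8100000 on hg38. It holds the 8 member genes APOBEC1, GDF3, DPPA3, CLEC4C, NANOGNB, NANOG, SLC2A14 and SLC2A3, in that order along the chromosome. Peaks were taken by position: every ATAC-seq peak whose summit fell in the stretch was used, 65 of 295753 peaks in the primed library and 62 of 299673 in the hTBLC library. Merging overlapping or touching peaks gave 50 primed regions of 242009 and 49 hTBLC regions of 250859 on chromosomes 1 to 22 and X. Both libraries came from WIBR3, an established human embryonic stem cell line, from 50000 living cells each, and both carry the cell type label hESC. One group is the library of conventional primed cells. The other is the library of hTBLCs, totipotent blastomere-like cells that the study derived through repression of the spliceosome. The labels give no genotype, agent, dose, time or passage for either group.

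ATAC-seq reports where a transposase can reach DNA, so promoters and enhancers in use stand out as peaks. NANOG is a homeodomain transcription factor that, with OCT4 and SOX2, sustains pluripotency. DPPA3 (STELLA) is a maternal and germ cell factor that shields DNA from changes in methylation, and GDF3 is a secreted ligand of the TGF-beta family, related to NODAL. SLC2A3 and SLC2A14 encode the glucose transporters GLUT3 and GLUT14 and arose by duplication, as did NANOGP1, a copy of NANOG that lies between them. APOBEC1 is the cytidine deaminase that edits apolipoprotein B messenger RNA, CLEC4C is a lectin of plasmacytoid dendritic cells, and NANOGNB is a homeobox gene next to NANOG.

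Each group has 1 library, so no replicate spread was available and no test between the conditions was made. The quantity compared is the pileup, the whole number of reads or fragments stacked at a peak's summit, solved from the authors' fold enrichment and p-value. Pileups carry exact Poisson 95% intervals and shares carry Wilson 95% intervals, which cover counting error only. The most frequent local background was 1.79 for primed and 1.96 for hTBLC peaks. Every hTBLC pileup was divided by the quotient of these levels, 1.09, before its ratio to the primed pileup was taken. Over all 139523 regions that overlapped 1 to 1 between the libraries, the scaled log2 ratio had a median of −0.13 and quartiles of −0.63 and 0.36. The median without scaling is 0, and scaling shifted every log2 ratio by −0.13. Of 12 embryonic stem cell markers, 7 have a listed start, while POU5F1, LIN28A, SALL4, TDGF1 and USP44 do not and were not counted. All 7 had a region within 1000 bp of the start in both libraries, beside 77.2% of all protein-coding starts. Of 3 fibroblast markers with a listed start, 2 had such a region in both libraries and 1 in hTBLC alone. The fibroblast markers COL1A1, COL1A2, COL3A1, DCN and LUM have no listed start. Of 12 markers of the 8-cell embryo, 10 have a listed start, and ARGFX and TPRX1 do not. Of these 10, CCNA1 and SLC34A2 had a region within 1000 bp of the start in both libraries. KLF17 and H3Y1 had one in primed alone (3.37% of all starts) and 0 had one in hTBLC alone (2.56%). The other 6, ZSCAN4, DUXA, LEUTX, DUXB, MBD3L2 and TPRX2, had one in neither library (16.9%).

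The sequences just before the starts show what the accessible signal covers at NANOG and what it leaves uncovered at its neighbours. The 250 bases before the annotated start are given 5′ to 3′ on the strand of the gene, from RefSeq on GRCh38.p14, for NANOG, whose start lies in an accessible region, for its near neighbours GDF3 and DPPA3, and for APOBEC1, which holds octamers. Capitals mark matches, on either strand, to the octamer ATGCAAAT, the SOX motif CATTGT, the OCT-SOX composite (the SOX motif, 1 free base and the first 6 bases of the octamer), the KLF motif GGGNGTGG, the hypoxia motif ACGTG, the CCAAT box (CCAAT) and the TATA box TATAAA.
NANOG: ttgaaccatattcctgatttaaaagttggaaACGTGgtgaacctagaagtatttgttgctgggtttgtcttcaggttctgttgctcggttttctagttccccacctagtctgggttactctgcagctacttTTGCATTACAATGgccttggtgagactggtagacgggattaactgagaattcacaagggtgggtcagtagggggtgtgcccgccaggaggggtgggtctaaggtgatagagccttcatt
GDF3: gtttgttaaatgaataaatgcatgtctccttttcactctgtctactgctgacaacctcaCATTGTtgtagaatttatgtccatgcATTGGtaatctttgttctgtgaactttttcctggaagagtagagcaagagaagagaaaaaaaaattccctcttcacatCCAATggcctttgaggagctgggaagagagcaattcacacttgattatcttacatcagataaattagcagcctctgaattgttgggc
DPPA3: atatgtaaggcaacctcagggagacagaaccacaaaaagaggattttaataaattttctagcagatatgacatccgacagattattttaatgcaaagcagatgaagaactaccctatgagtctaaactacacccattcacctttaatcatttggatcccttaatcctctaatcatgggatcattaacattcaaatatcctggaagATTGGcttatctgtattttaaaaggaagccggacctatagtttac
APOBEC1: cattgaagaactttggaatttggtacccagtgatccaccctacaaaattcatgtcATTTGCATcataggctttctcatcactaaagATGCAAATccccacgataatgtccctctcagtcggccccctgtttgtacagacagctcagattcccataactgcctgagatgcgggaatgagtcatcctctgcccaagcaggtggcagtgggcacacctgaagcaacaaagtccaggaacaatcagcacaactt
The NANOG sequence spans chr12:7789152-7789401 on the plus strand and that of DPPA3 chr12:7711183-7711432, also on the plus strand. Those of GDF3, chr12:7695776-7696025, and APOBEC1, chr12:7665909-7666158, lie on the minus strand.

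In the NANOG sequence the second block of capitals, TTGCATTACAATG, is the OCT-SOX composite read on the other strand, and its last 6 bases are also the SOX match. It began 119 bases before the start, at chr12:7789283-7789295. The accessible region of each library covered it, and its middle lay 52 bp from the primed summit and 54 bp from the hTBLC summit. The composite occurred in 3 of 35093 promoters of this length (0.00855%), those of NANOG, NRARP and LINC02025. The ACGTG match in NANOG, a motif found in 18.5% of promoters, lay outside the accessible region in both libraries. APOBEC1 held 2 octamers, a motif present in 1.63% of promoters, and neither library had a region over them. GDF3 held 1 SOX match and 2 CCAAT matches and DPPA3 held 1 CCAAT match, all outside any region. SOX matches occurred in 9.29% and CCAAT matches in 32.0% of promoters. The NANOGNB sequence held none of the 7 motifs. The GC content was 47.6% at NANOG and APOBEC1, 38.4% at GDF3, 35.6% at DPPA3 and 36.0% at NANOGNB, against a median of 58.0% over all promoters, while SLC2A14 had 66.0%. A match is a description of letters and does not show that a factor was bound.

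Across the whole stretch the libraries shared most of their regions. In the primed library 37 of 50 regions touched an hTBLC region, a share of 74.0% (60.4 to 84.1), and in the hTBLC library 37 of 49 touched a primed region, a share of 75.5% (61.9 to 85.4). Over chromosomes 1 to 22 and X the shares were 62.7% and 60.8%. The 13 primed-only regions stand against 37.3% primed-only among all primed regions, and the 12 hTBLC-only regions against 39.2% among all hTBLC regions. The pileups of regions of 1 library ran from 7 to 29 with a median of 11 in primed, and from 7 to 16 with a median of 10 in hTBLC. Over all regions the median was 17 in primed and 16 in hTBLC. A −log10 q of at least 5 was reached by 6 of the 13 primed-only regions and 1 of the 12 hTBLC-only regions. The lowest pileup called anywhere was 6 in primed against 7 in hTBLC, so many of these regions lie close to the limit of calling. The regions covered 25.3 kb in primed and 23 kb in hTBLC, and their median pileup was 25.5 and 21 respectively.

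**Figure D1:**
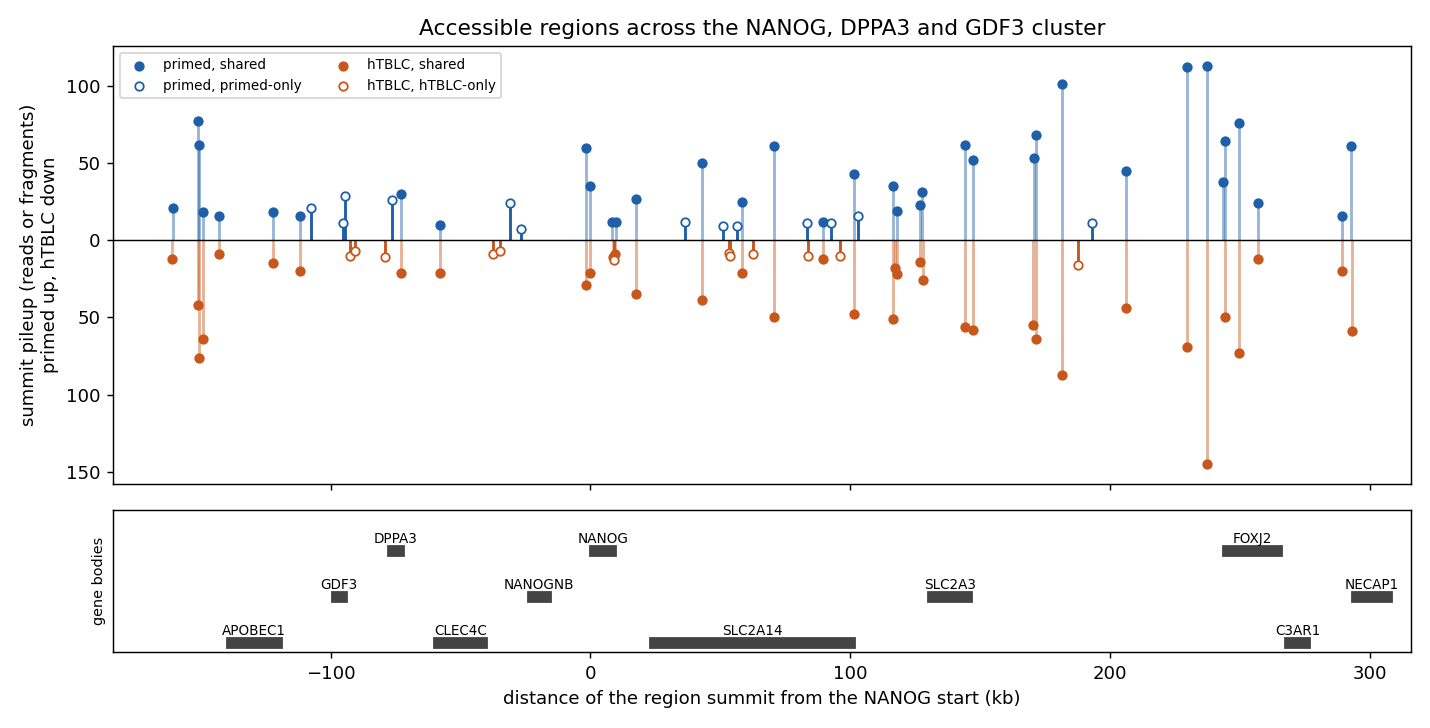
Summit pileup of every region (primed upward, hTBLC downward, in reads or fragments) against its distance from the NANOG start in kb, with gene bodies below; open circles are regions found in 1 library only. The 13 primed-only and 12 hTBLC-only regions have pileups of at most 29. The tallest region of each library, at 113 in primed against 145 in hTBLC, is shared and lies between SLC2A3 and FOXJ2.

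Of the shared regions, 34 overlapped 1 to 1 and gave a ratio of hTBLC to primed pileup, with an exact binomial 95% interval. The interval of the ratio lay below 1 at 5 of them (14.7%), against 17.9% of all matched regions, and above 1 at 1 (2.94%), against 11.2%. It included 1 at the remaining 28. Without scaling, 8.82% of the 34 intervals lay below 1 and 2.94% above, beside 14.1% and 14.6% of all matched regions. The ratio itself was under 1 at 24 and over 1 at 10. The median log2 ratio in the stretch was −0.27, with quartiles of −0.62 and 0.03, beside the genome-wide median of −0.13. The 5 regions below 1 included both that lie next to the NANOG start.

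**Figure D2:**
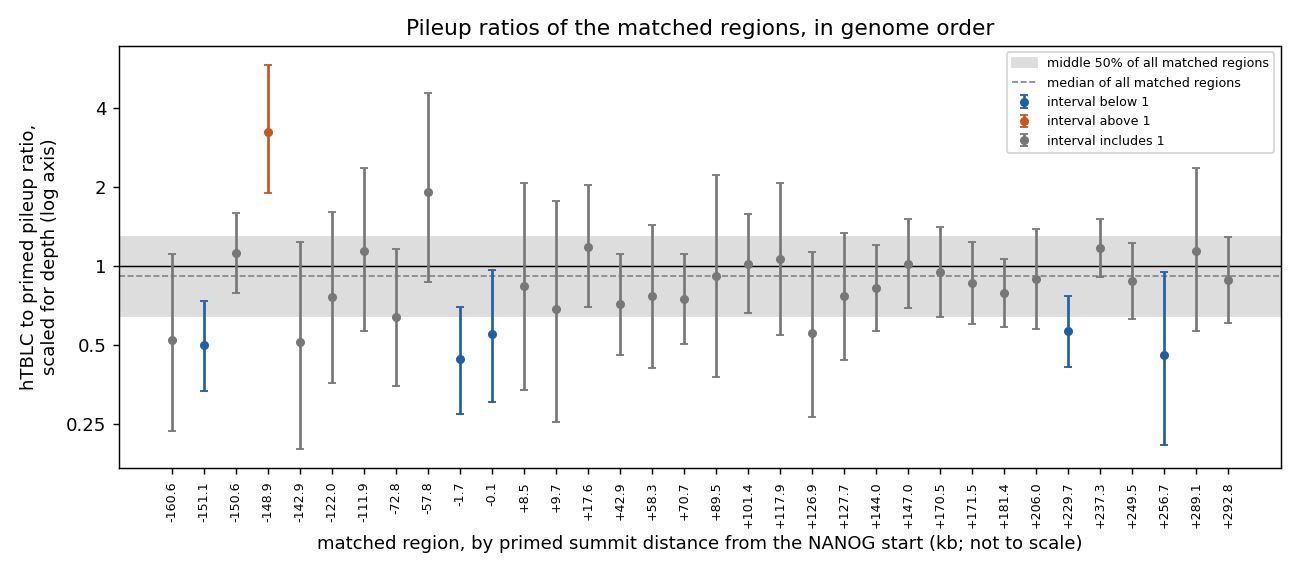
Ratio of hTBLC to primed pileup, scaled for depth, on a log axis for the 34 matched regions in genome order, with exact binomial 95% intervals; the grey band holds the middle 50% of all matched regions. The regions at −1.7 and −0.1 kb from the NANOG start have ratios of 0.44 and 0.55, and the only interval above 1 is at −148.9 kb, with a ratio of 3.25.

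At NANOG, the pileup was lower in hTBLC than in primed at the start and just upstream of it. The region on the start, chr12:7789194-7789480 in primed, had its summit 61 bp upstream of the start, and the hTBLC summit lay 59 bp upstream. The pileup was 35 (24.4 to 48.7) in primed against 21 (13.0 to 32.1) in hTBLC, and the scaled ratio was 0.55 (0.30 to 0.97). The intervals of the 2 pileups overlap, and without scaling the ratio was 0.60 (0.33 to 1.06), so its separation from 1 depends on the scaling. Of all matched regions, 16.6% had a lower ratio. The fold enrichment was 7.29 in primed against 5.45 in hTBLC, over local backgrounds of 3.94 and 3.04.

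The stronger region of the gene was the upstream one, chr12:7787553-7788237, with summits 1653 bp before the start in primed and 1657 bp before it in hTBLC. Its pileup was 60 (45.8 to 77.2) in primed against 29 (19.4 to 41.6) in hTBLC, and these intervals do not overlap. The scaled ratio was 0.44 (0.27 to 0.70) and stayed below 1 without scaling, at 0.48 (0.30 to 0.76). Of all matched regions, 9.54% had a lower ratio. The fold enrichment in the authors' lists was 12.6 in primed against 7.61 in hTBLC. The local background solved at this summit was 3.84 in primed against 2.94 in hTBLC.

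At the 3′ end of NANOG both libraries showed weak regions whose ratios had intervals that include 1. A region 8461 bp after the start had a pileup of 12 in primed against 11 in hTBLC, with a ratio of 0.84 (0.34 to 2.07). The last one, 63 bp inside the end of the gene in primed, had pileups of 12 and 9, with a ratio of 0.69 (0.26 to 1.77). Between them hTBLC alone had a region, of pileup 13 (6.92 to 22.2) and a −log10 q of 4.58. Beyond the gene, 17.6 kb after the start, a shared region had pileups of 27 and 35 and a ratio of 1.19 (0.70 to 2.04).

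The copy of NANOG had regions at matching positions, with other values. NANOGP1, taken to lie on the plus strand like NANOG, begins at 7892362, and regions stood at nearly the same distances before its start as before that of NANOG: 1590 bp in primed and 1581 bp in hTBLC for the upstream one. There the pileup was 43 (31.1 to 57.9) in primed against 48 (35.4 to 63.6) in hTBLC, a ratio of 1.02 (0.66 to 1.58), whereas the NANOG upstream region had 0.44 (0.27 to 0.70). The intervals of the 2 ratios overlap slightly, and the difference between them was not tested. On the start of NANOGP1, 72 bp upstream, only the primed library had a region, chr12:7892176-7892414, with a pileup of 16 (9.15 to 26.0) and a −log10 q of 6.35. How reads were placed between these related sequences was not analysed here.

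**Figure D3:**
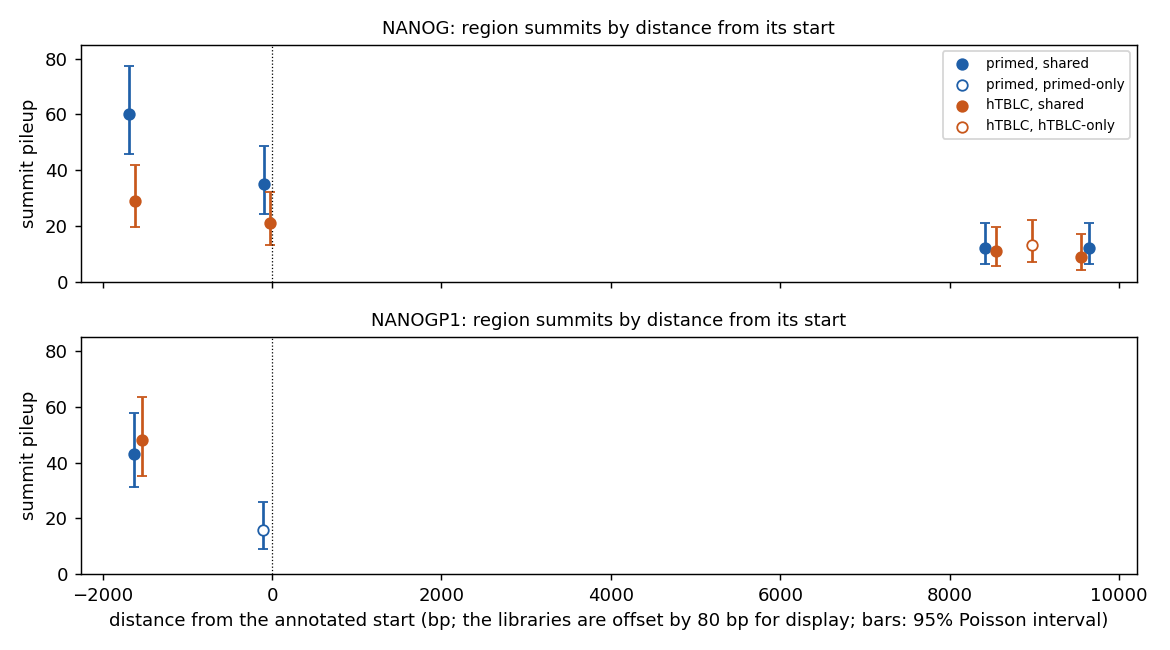
Summit pileups with Poisson 95% intervals against the distance in bp from the starts of NANOG (top) and NANOGP1 (bottom); open circles are regions of 1 library. Upstream of NANOG the pileup is 60 in primed against 29 in hTBLC, while at nearly the same distance from NANOGP1 it is 43 and 48, and the start of NANOGP1 has a primed region alone, at 16.

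The region upstream of NANOGP1 is also the one on the outermost 5′ end of SLC2A14, at 7891196 on the minus strand. It held a pair of summits that could be matched between the libraries, a comparison added after the data were seen. The summit 424 bp inside the gene in primed and 415 bp inside it in hTBLC is the one given above, at 43 and 48. The other summit, nearer to the outermost end, lay 62 bp inside the gene in primed and 121 bp inside it in hTBLC. Its pileup was 15 (8.40 to 24.7) in primed against 37 (26.1 to 51.0) in hTBLC, intervals that do not overlap. The scaled ratio was 2.26 (1.21 to 4.42), and 2.47 (1.32 to 4.84) without scaling. Across the stretch 40 summits could be paired within 100 bp, and the interval lay above 1 at 2 of them, against 11.4% of all summit pairs, and below 1 at 5, against 17.4%. Without scaling it lay above 1 at 2 and below 1 at 3, beside 24585 and 22164 of all 163160 summit pairs.

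At the start of SLC2A14 that the promoter table lists, 7872915, the signal was weak and differed in place. The primed library had a region with its summit 228 bp after the start and a pileup of 11 (5.49 to 19.7). The hTBLC library had one 330 bp before the start, with a pileup of 10 (4.80 to 18.4), and the regions did not overlap. Inside the gene, 4 further shared regions had ratios from 0.71 to 0.91, and all of their intervals included 1. The strongest was chr12:7859913-7860816, with pileups of 61 in primed against 50 in hTBLC and a ratio of 0.75 (0.51 to 1.11). The gene is 78.7 kb long and held 10 regions in each library, of which 5 were primed-only and 5 hTBLC-only, beside 37.3% and 39.2% of all regions. The primed-only ones had pileups of 9 to 12 and the hTBLC-only ones of 8 to 10.

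SLC2A3, the duplicate of SLC2A14 and the main glucose transporter of neurons, had pileups within counting error of each other in the libraries. Its start, 7936187, had a region at chr12:7936076-7936584 whose summit lay 247 bp upstream in both libraries. The pileup was 52 (38.8 to 68.2) in primed against 58 (44.0 to 75) in hTBLC, a ratio of 1.02 (0.69 to 1.51). A second region, inside the gene at 2788 bp from the start in primed and 2775 bp in hTBLC, had 62 (47.5 to 79.5) and 56 (42.3 to 72.7), a ratio of 0.83 (0.56 to 1.20). These intervals allow a decrease to 0.56 or an increase to 1.51, so equal accessibility is not shown. Past its 3′ end, regions 2156 and 2927 bp away in primed had ratios of 0.77 (0.44 to 1.33) and 0.56 (0.26 to 1.13).

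Between SLC2A14 and SLC2A3 the strongest site was a broad primed region, chr12:7905591-7906764, that faced 2 hTBLC regions. Its main summit had a pileup of 35 in primed against 51 in hTBLC, 22 bp apart, with a ratio of 1.33 (0.85 to 2.11).

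GDF3 had no site in common between the libraries. In primed, a region with its summit 995 bp inside the gene, chr12:7694448-7695198, had a pileup of 29 (19.4 to 41.6), a fold enrichment of 7.69 and a −log10 q of 17.5. A weaker primed-only region 1699 bp inside the gene had a pileup of 11 (5.49 to 19.7). In hTBLC the gene body held 0 regions, and the nearest lay upstream, with its summit 995 bp before the start and a pileup of 10 (4.80 to 18.4). Its −log10 q was 3.41. The pileup intervals of the primed region inside the gene and the hTBLC region before it do not overlap, but these are different sites. No region covered the start itself in either library.

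DPPA3 showed the same layout at its 5′ part. The primed library had a region inside the gene with its summit 1600 bp after the start, chr12:7712864-7713310, with a pileup of 26 (17.0 to 38.1) and a −log10 q of 14.8, where the hTBLC library had none. The hTBLC library had a weak region with its summit 1102 bp before the start, with a pileup of 11 (5.49 to 19.7) and a −log10 q of 4.15, where the primed library had none. The shared region of the gene, chr12:7716428-7716740, lay 972 bp from the 3′ end and 5154 bp from the start in primed. It is thus closer to the 3′ end of the gene than to its start. Its pileups were 30 (20.2 to 42.8) and 21 (13.0 to 32.1), with a ratio of 0.64 (0.35 to 1.16) that includes 1. The start of DPPA3 was not covered in either library.

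**Figure D4:**
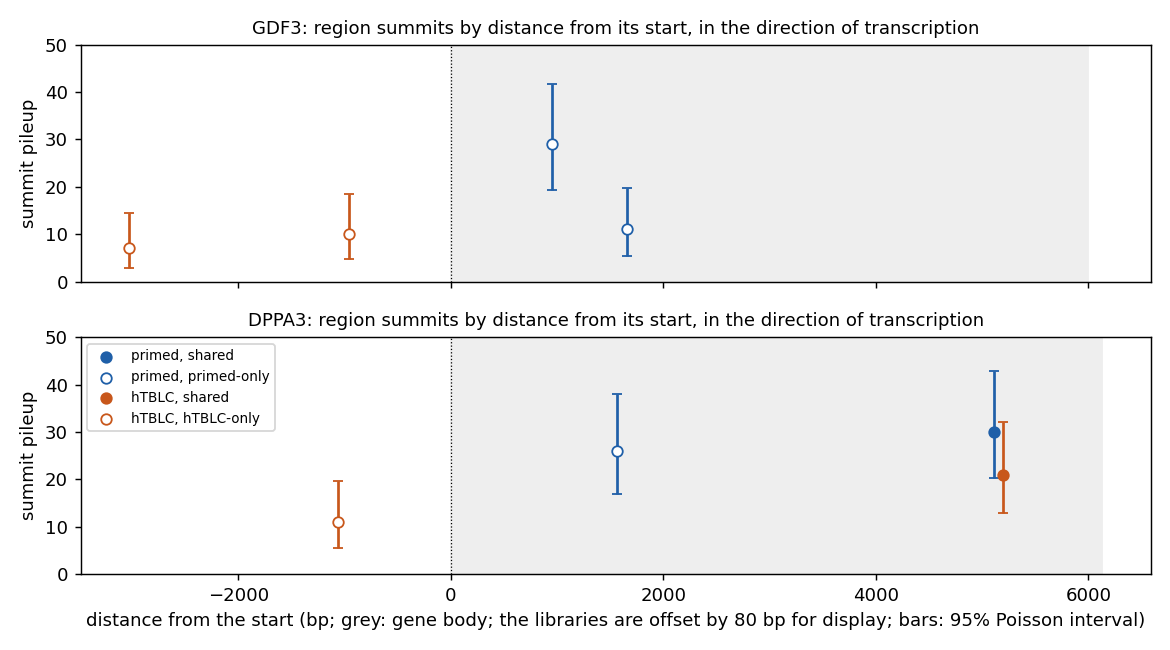
Summit pileups with Poisson 95% intervals against the distance in bp from the starts of GDF3 (top) and DPPA3 (bottom), in the direction of transcription, with the gene body in grey; open circles are regions of 1 library. In both genes primed-only regions lie inside the first 2 kb of the body, at 29, 11 and 26, while the hTBLC-only regions lie before the start, at 7 to 11, and the shared DPPA3 region is near the 3′ end.

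Near the other members the signal was sparse. NANOGNB had no region in its body in either library, and the nearest was a primed region 2401 bp upstream with a pileup of 7 and a −log10 q of 0.997. CLEC4C had no region within 1000 bp of its start in either library. The gene held 1 shared region, 2210 bp from its 3′ end in primed, with a pileup of 10 (4.80 to 18.4) in primed against 21 (13.0 to 32.1) in hTBLC and a ratio of 1.92 (0.87 to 4.57) that includes 1. Of 7 blood cell markers with a listed start, CLEC4C among them, 5 had no region at the start in either library, 1 had one in both and 1 in hTBLC alone, beside 16.9%, 77.2% and 2.56% of all starts. APOBEC1 had 1 shared region, 1450 bp before the listed start in primed and inside the longer form of the gene, with pileups of 18 (10.7 to 28.4) and 15 (8.40 to 24.7). Its ratio was 0.76 (0.36 to 1.6).

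Counted over the 8 members, a region lay within 1000 bp of the start in both libraries at 4, against 77.2% of 15811 protein-coding genes. No member had one in primed alone, a state of 3.37% of genes, DPPA3 had one in hTBLC alone, a state of 2.56%, and APOBEC1, CLEC4C and NANOGNB had none, against 16.9%. At NANOG and SLC2A3 the regions overlapped each other. At GDF3 and the listed SLC2A14 start they did not, a layout found at 0.77% of the genes with a region in both libraries. That share counts regions of any strength. The pileups here, primed before hTBLC, were 29 and 10 at GDF3 and 11 and 10 at SLC2A14. On the outermost 5′ end of SLC2A14 the regions overlapped, at 43 and 48. The states of the members changed with the settings. When regions had to reach a −log10 q of 5, only NANOG and SLC2A3 had one in both libraries, GDF3 had one in primed alone and DPPA3 had none. At a limit of 10 only SLC2A3 had one in both, and GDF3 and NANOG had one in primed alone. The hTBLC region on the NANOG start had a −log10 q of 9.61. Within 500 bp of the start 3 members had one in both, without GDF3, and DPPA3 had none. Within 2500 bp 6 members had one in both, DPPA3 and APOBEC1 included.

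**Figure D5:**
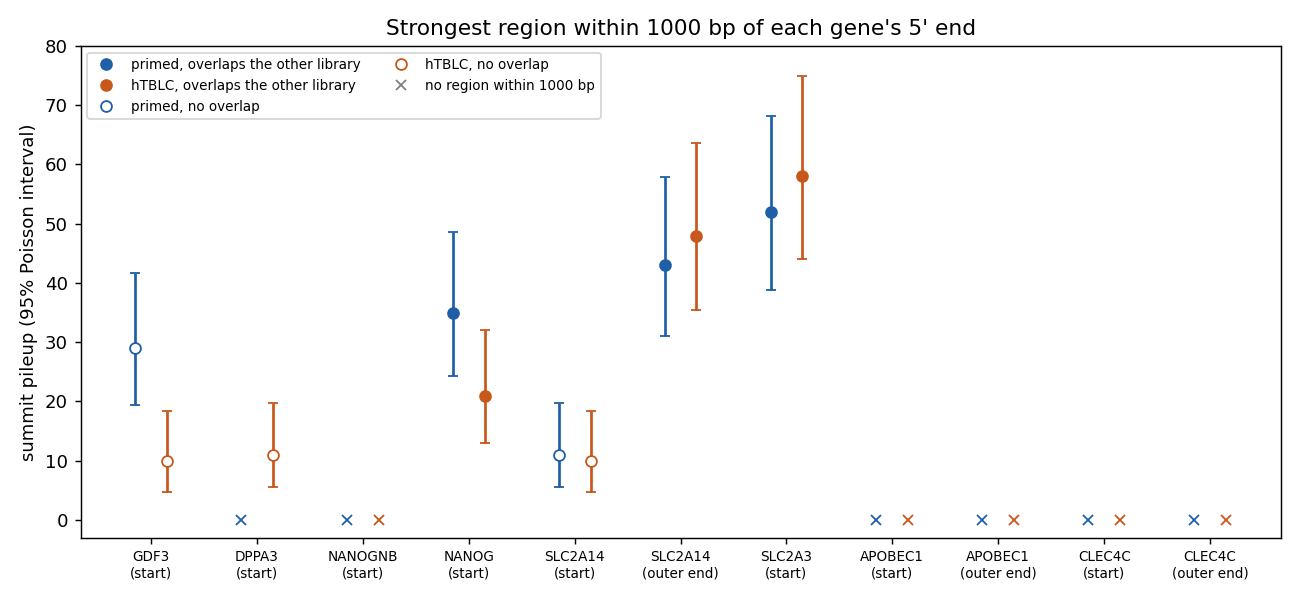
Pileup, with its Poisson 95% interval, of the strongest region within 1000 bp of each member's start and, where it differs, of its outermost annotated 5′ end; open circles do not overlap a region of the other library and crosses mark none. NANOG has 35 in primed against 21 in hTBLC, SLC2A3 has 52 and 58, and NANOGNB, APOBEC1 and CLEC4C have none.

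Over genes and the spans between them, 6 primed-only regions and 1 hTBLC-only region of the stretch had a −log10 q of at least 5, or 12% and 2.04% of the regions, against 15.6% and 13.2% over all regions. Besides those at GDF3, DPPA3 and NANOGP1, the primed-only regions were chr12:7681534-7681923 between APOBEC1 and GDF3, with a pileup of 21 (13.0 to 32.1), and chr12:7758016-7758756 between CLEC4C and NANOGNB, 30.9 kb before the NANOG start, with 24 (15.4 to 35.7). The sixth, inside SLC2A14, had a pileup of 12 and a −log10 q of 5.35. The hTBLC-only region, chr12:7976904-7977496 between SLC2A3 and FOXJ2, had a pileup of 16 (9.15 to 26.0) and a −log10 q of 8.36. From the GDF3 body to the end of NANOG, a span of 109 kb chosen after the values were seen, 5 of 11 primed regions were primed-only and 6 of 12 hTBLC regions hTBLC-only. The shared shares there, 54.5% (28.0 to 78.7) and 50% (25.4 to 74.6), have intervals that include the genome-wide values.

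The strongest regions of the stretch lay away from the pluripotency genes. The highest pileup in both libraries was at chr12:8026325-8027333, 6.00 kb before the start of FOXJ2, a forkhead transcription factor gene, with 113 (93.1 to 136) in primed against 145 (122 to 171) in hTBLC. Its ratio was 1.17 (0.91 to 1.51). A region 13.6 kb before the FOXJ2 start, chr12:8018669-8019586, had 112 (92.2 to 135) in primed against 69 (53.7 to 87.3) in hTBLC, with a ratio of 0.56 (0.41 to 0.77). Its local background was 5.4 in primed against 3.42 in hTBLC. The fold enrichment over it was therefore closer, at 17.7 in primed against 15.8 in hTBLC. The region of rank 3 in primed and rank 2 in hTBLC, 34.6 kb before the SLC2A3 start, had 101 (82.3 to 123) and 87 (69.7 to 107). Its ratio was 0.79 (0.58 to 1.06), while its fold enrichment was 15.1 in primed against 16.5 in hTBLC. Of the 11 primed regions among the highest 10 ranks, ties included, 8 overlapped a region of the hTBLC top 10.

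At the other edge, between 148.9 and 151.1 kb before the NANOG start and beyond the 3′ end of APOBEC1, 3 neighbouring regions went different ways. The outer one, chr12:7638088-7638514, had a pileup of 77 (60.8 to 96.2) in primed against 42 (30.3 to 56.8) in hTBLC, a ratio of 0.50 (0.33 to 0.74). The middle one, chr12:7638648-7639031, had 62 and 76, a ratio of 1.12 (0.79 to 1.59). The inner one, chr12:7640284-7640619 in primed, had 18 (10.7 to 28.4) in primed against 64 (49.3 to 81.7) in hTBLC, a ratio of 3.25 (1.90 to 5.83), the largest of the 34. Of all matched regions, 98.2% had a lower ratio. These 3 regions had local backgrounds of 6.38 to 6.86 in the primed and 8.08 to 8.28 in the hTBLC library, and those at the SLC2A3 start were 5.08 and 5.50.

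Other genes of the same pathways were counted at their starts in the same way, with lists chosen while earlier results of these data were known. Over all genes whose strongest start regions matched, the ratio had a median of 1.03. Its interval lay below 1 at 13.4% and above 1 at 17.8%, and without scaling at 8.88% and 27.6%. Counts of starts with a region in both libraries stand beside 77.2% of all protein-coding starts. Counts in primed alone stand beside 3.37% of all starts, and counts in neither library beside 16.9%.

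Of 18 genes of the NANOG network, 12 had a listed start. A region lay there in both libraries at 9, and at ZFP42, DPPA5 and KLF5 in neither. The ratio could be given for 7 and had a median of 0.62. Its interval lay below 1 at SOX2 (0.67, 0.50 to 0.89), the partner of OCT4, and at L1TD1 (0.59, 0.45 to 0.76), an RNA-binding protein gene of stem cells. It also lay below 1 at OTX2 (0.49, 0.25 to 0.90), TFCP2L1 (0.45, 0.28 to 0.70) and ESRRB (0.62, 0.38 to 0.99), all transcription factor genes. It lay above 1 at DPPA2 (1.82, 1.38 to 2.41) and included 1 at DPPA4 (1.35, 0.94 to 1.93), the partner of DPPA2. Without scaling, 4 intervals lay below 1 and 2 above, since that of ESRRB (0.41 to 1.09) then included 1 and that of DPPA4 (1.03 to 2.11) did not. At KLF4 and UTF1 the strongest regions were not matched 1 to 1. Their highest pileups were 43 in primed and 65 in hTBLC at KLF4, and 38 and 18 at UTF1.

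Of 12 genes of GDF3 and NODAL signalling with a listed start, 12 had a region in both libraries. The median ratio over 9 of them was 1.04, with 3 ratios under 1 and 6 over 1. The interval lay below 1 at the receptor gene ACVR1C (0.70, 0.54 to 0.90) and the antagonist gene CER1 (0.56, 0.41 to 0.76), included 1 at 7 and lay above 1 at 0. Without scaling that of SMAD4 (1.08 to 1.91) lay above 1. At 3 genes the strongest regions were not matched. The highest pileups there, primed before hTBLC, were 81 and 28 at the ligand gene NODAL, 61 and 90 at the signal transducer gene SMAD3, and 128 and 133 at the receptor gene ACVR2B.

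Among 13 genes of glucose uptake with a listed start, 10 had a region in both libraries and a ratio, with a median of 1.12. SLC2A2 had a region in primed alone and 2 genes had none. The interval lay below 1 at the hexokinase gene HK2 (0.62, 0.47 to 0.82). It lay above 1 at the lactate dehydrogenase gene LDHA (1.63, 1.06 to 2.52) and at SLC2A13 (1.68, 1.28 to 2.21), and included 1 at 7. Without scaling that of SLC2A1 (1.05 to 1.74), the gene of GLUT1, also lay above 1. Of 11 deaminase relatives and partners of APOBEC1, 4 had a listed start. APOBEC3H had a region in both libraries, with a ratio of 0.49 (0.29 to 0.80), APOBEC2 in primed alone, and APOBEC4 and A1CF in neither.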

How the data were processed

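Peak lists of 2 ATAC-seq libraries were used, 1 per group. Per the submitters' processing notes, Bowtie2, Picard and MACS2 were used on build hg38. The sources used here do not give versions, settings, read shifting or the handling of duplicates. Each deposited peak list holds coordinates, a summit offset, a score (unused), a fold ratio over local background, a −log10 p-value and a −log10 q-value, as the authors computed them per library. The hTBLC list ended at rank 300000 with a lowest −log10 p of 2.83, the primed list at rank 296005 with 2.00, so weak regions are listed more deeply for primed. Within them, 327 and 252 ranks were missing and were treated as no peak.

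Whole pileups were solved from the deposited fold, taken as pileup plus 1 over background plus 1, and the −log10 p, taken as a Poisson upper tail (99.999% of primed and 99.998% of hTBLC peaks within 0.001). Simulated pileups were recovered for 100% of 20000 peaks. The simulation used these same formulas, so it checks only the arithmetic of the solving. Regions sharing at least 1 bp were called shared. Starts and strand came from a RefSeq promoter table (GRCh38.p14) for 7 members and 15811 of 19970 protein-coding genes. SLC2A3 was not in it, and its start is the upper end of the gene in the RefSeq gene table, the gene being on the minus strand. Members and lists were chosen with earlier results of these data known. Named were the 8 members and other genes of the stretch, the 10 strongest regions per library, regions of 1 library whose −log10 q reached 5, and matched regions whose interval excludes 1. Genes named from the lists were picked after their values were seen. The alternatives were stricter −log10 q, a common −log10 p floor, other overlap rules, other start windows and other scalings. Calculations used Python 3.11.15 with numpy 2.4.6, scipy 1.17.1 and pandas 2.3.3.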

Additional observations from a re-analysis of the deposited data

How the results depend on the processing

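With reciprocal overlap of at least 50%, the shared shares moved to 58.0% of primed and 59.2% of hTBLC regions. When regions had to reach a −log10 q of 5 or 10, the shared hTBLC share was 87.1% and 88.0%. The shared primed share was then 71.1% and 74.2%. The hTBLC-only share of library-only regions was 48.0% (30.0 to 66.5) in the full lists, beside 52.1% over chromosomes 1 to 22 and X. It was 26.7% (10.9 to 52.0) of 15 regions and 27.3% (9.75 to 56.6) of 11 regions at these 2 limits. Both intervals include 48.0%. The members with a start region in both libraries, 4 in the full lists, then numbered 2 and 1 (3 within 500 bp and 6 within 2500 bp of the start). Shares over all regions are not given for reciprocal overlap or stricter −log10 q. The moves are therefore not shown to be particular to the stretch. Regions shared within 500 bp and a common −log10 p floor moved none of the 3 shares beyond their intervals. Without depth scaling, which is the same as setting the median ratio of all matched regions to 1, the ratio intervals below 1 numbered 3 in place of 5, the 1 above 1 remained, and the median log2 ratio of the stretch was −0.14. The region on the NANOG start then had 0.60 (0.33 to 1.06) and the FOXJ2 region at chr12:8046001-8046519 had 0.50 (0.23 to 1.04). No paired analysis was possible because each group has 1 library. The lowest pileup called anywhere was 6 in primed and 7 in hTBLC, and no single limit holds at every site. A primed pileup of 18 had a −log10 q of 10.9 at a local background of 1.79, but of 2.34 at 6.86. Absence of a weak region therefore cannot be told from closed chromatin.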

Other observations

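The stretch also holds genes that are no members. NECAP1, which encodes a factor of clathrin-mediated endocytosis, had a region on its start with pileups of 61 (46.7 to 78.4) in primed against 59 (44.9 to 76.1) in hTBLC, a ratio of 0.88 (0.61 to 1.29). At FOXJ2 the summits on the start had 38 in primed against 31 in hTBLC, a ratio of 0.75 (0.45 to 1.23). A region inside FOXJ2, chr12:8046001-8046519, had 24 (15.4 to 35.7) and 12 (6.20 to 21.0), a ratio of 0.46 (0.21 to 0.95), and 0.50 (0.23 to 1.04) without scaling. C3AR1, the receptor gene for complement C3a, had no region within 1000 bp of its start, the nearest lying 12.2 kb away in both libraries. Close to the SLC2A3 side, 2 neighbouring shared regions 170 and 171 kb past the NANOG start had ratios of 0.95 (0.64 to 1.41) and 0.86 (0.60 to 1.23).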
